A study of Mus musculus with 2 samples.

Results

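The subunits of the respiratory chain and of ATP synthase were followed in mouse cavernous pericytes kept in high or normal glucose. Members were chosen by gene symbol alone: Nduf genes of the a, b, c, s and v series for complex I, Sdha to Sdhd for complex II, Uqcr genes for complex III, Cox4 to Cox8 genes for complex IV and Atp5 genes for complex V. Ndufa4l2 and Cox4i2, which are replacement isoforms known to respond to low oxygen, were left out. This gave 82 genes of 20887 named on the array, with 36 in complex I, 4 in complex II, 8 in complex III, 17 in complex IV and 17 in complex V.

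The study compared primary cavernous (penile) pericytes of C57BL/6 mice, exposed for 72 h to high glucose (HG, labelled 30 mmol) or normal glucose (NG, labelled 5 mmol). All cells were grown with serum, antibiotics and human pigment epithelium-derived factor. Each condition is 1 pool of RNA from 3 samples on 1 single-colour Agilent array, and nothing says that the pooled samples came from separate animals. With 1 array per condition there is no replicate check, no test was run and no p-value is given.

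Complexes I to IV pass electrons from NADH and succinate to oxygen and, except for complex II, pump protons across the inner mitochondrial membrane. Complex V, the ATP synthase, uses the proton gradient to make ATP. Most subunits are encoded in the nucleus, and 13 more come from mitochondrial DNA. None of these 13 was among the genes named here by RefSeq accession. This naming left 28172 of 55681 probes unnamed, so it cannot tell whether the array holds probes for them. Mitochondria of vascular cells are widely studied as a source of reactive oxygen in high glucose.

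The HG array had 57.6% and the NG array 56.3% of 59305 gene spots well above background, and neither had a saturated spot. Each probe's processed signal was compared after scaling to the array's 75th percentile, which was 733 on the HG array and 774 on the NG array. A ratio below is HG over NG after this scaling, so it describes a gene's share of the signal and cannot show a change common to all genes. Where 2 signals are given they are unscaled, and equal expression would appear as an NG signal 1.06 times the HG signal. A probe's brightness depends on its sequence, so signals of different genes are not ranked. Of 8 pericyte markers 7 were measured, among them Pdgfrb, the platelet-derived growth factor receptor, at 18161 in HG and 17471 in NG. Their median log2 ratio was -0.10, with 3 above and 4 below 0, from Abcc9 at -0.45 to Rgs5 at 0.58, both dim. Kcnj8, a pericyte potassium channel, did not rise well above background in HG or NG. All 6 smooth muscle and all 5 fibroblast markers were measured too, so these counts do not single out pericytes. Of 6 endothelial markers 3 were measured, and of these only the receptor Kdr was bright (7075 in HG, 7379 in NG). Pecam1 (85.1 in HG, 82.9 in NG) and Vwf (48.5 in HG, 74.0 in NG) were dim. Cdh5, Tek and Cldn5 did not rise well above background in HG or NG. The number of arrays limits the precision of every value.

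The respiratory chain subunits differed little between high and normal glucose. Of the 82, 79 (96.3%) were measured, that is, well above background without saturation in HG and in NG, against 67.9% of all named genes. Their signals ran from 341 to 349248 in HG, with a median of 49017, and from 506 to 363718 in NG, with a median of 52792. The median log2 ratio of the 79 was -0.0053, beside -0.0073 over the 14176 measured genes of the whole array. A positive ratio was seen for 36 subunits, or fewer than the 43 with a negative one, and 46.8% of all measured genes had a positive ratio. The signs depend on the scaling: 42 subunits were above 0 and the median was 0.0021 with the percentile taken over detected probes only, and 7 were above 0 with each array centred on its median.

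No subunit was at least 1.2-fold higher in high glucose, and 1, the muscle isoform Cox6a2, was at least 1.2-fold lower. Over all measured genes 6.80% were at least 1.2-fold higher and 5.51% at least 1.2-fold lower. No subunit was 1.5-fold different in either direction, beside 1.62% of all genes higher and 1.19% lower. Ratios of bright probes vary less, so the subunits were also read beside genes above a common floor of signal. The subunits above this floor of 5000 had median signals of 51282 in HG and 54506 in NG. Brightness above the floor was not matched between the sets, so brightness can still add to the differences between them. Among 4168 genes with a signal of at least 5000 on both arrays, 1.46% were at least 1.2-fold higher and 0.792% at least 1.2-fold lower, and of the 76 subunits this bright none was either. At 1.5-fold these shares were 0.264% and 0.168%.

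**Figure D1:**
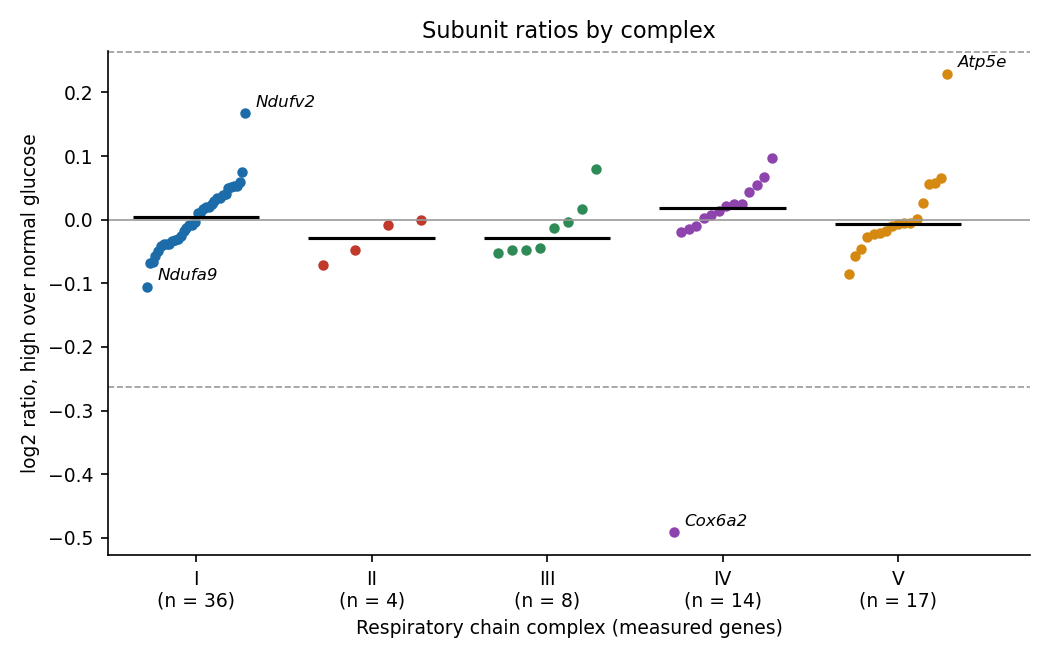
Log2 ratio of high over normal glucose (vertical axis) for the 79 measured subunits, 1 point a gene, ordered within each complex; black bars are medians and dashed lines mark 1.2-fold. Only Cox6a2 lies beyond a dashed line, at -0.49, and Atp5e at 0.23 and Ndufv2 at 0.17 stand at the other end.

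The spread of the ratios was narrow. The log2 ratio had an SD of 0.077 across the 79 subunits and of 0.053 without Cox6a2, beside 0.24 across all measured genes. For the 76 subunits with a signal of at least 5000 the SD was 0.053, beside 0.11 across the 4168 genes above the same floor. These sets were not matched in brightness above it. A log2 ratio within 0.1 of 0 was found for 75 of 79 subunits (94.9%), beside 60.2% of all measured genes and 79.5% of those with a signal of at least 5000. The error of a single spot can be read from gene probes printed 10 times, for which the log2 ratio had a median SD of 0.032 between spots over 82 probes at this brightness. That error is technical and leaves out the spread between cultures, so these ratios show how close the 2 pools were, not how close repeated cultures would be.

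**Figure D2:**
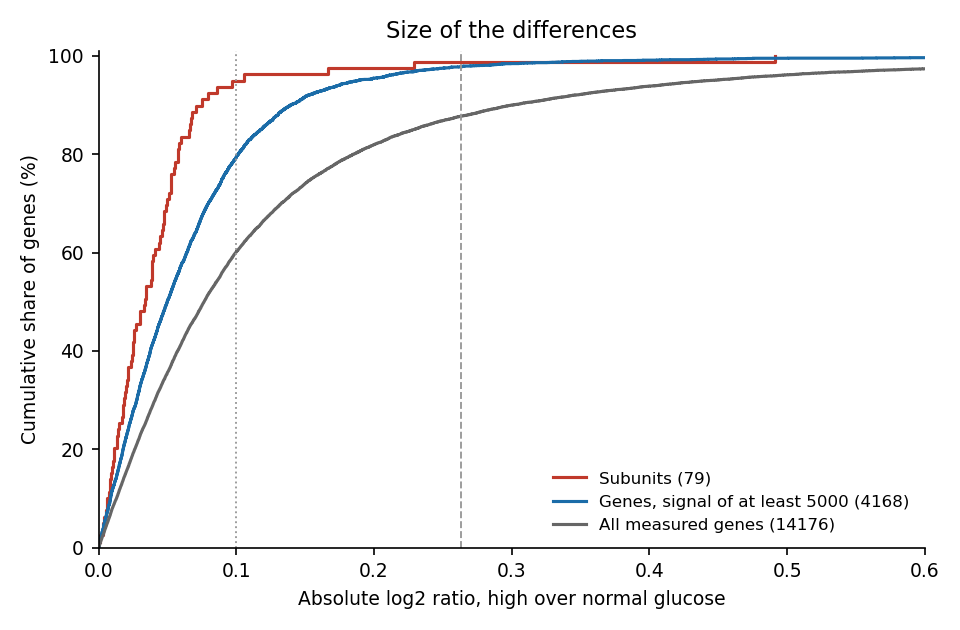
Cumulative share of genes (vertical axis, %) with an absolute log2 ratio up to the value on the horizontal axis, for the 79 subunits, for genes with a signal of at least 5000 on both arrays and for all measured genes; the dotted line is at 0.1 and the dashed line at 1.2-fold. At 0.1 the curves stand at 94.9%, 79.5% and 60.2%.

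One subunit was itself printed 10 times. Uqcrc2, a core protein of complex III, had signals of 27834 to 29957 over its 10 spots in HG, with a median of 28446, and of 29076 to 31136 in NG, with a median of 29836. Its log2 ratio was 0.02 ± 0.01 (SD over 10 spots of 1 array pair), running from -0.0041 to 0.04. The spots of the 2 arrays overlapped in signal before scaling, and the difference after scaling was about as small as the spread between its own spots.

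Some promoters of the subunits hold letters of known motifs, which the symbol rule did not use. Promoters of respiratory genes are known binding places of nuclear respiratory factor 1 (NRF1) and of YY1, both activators of nuclear genes for mitochondria. RefSeq promoter windows, 250 bases before to 50 after a gene's start, were at hand for 68 of the 82 genes, in 73 windows. Each motif was searched on both strands, in windows of the same length for all genes, non-coding ones included. GCATGCG, the core of the NRF1 motif, occurred in 11 of the 73 windows (15.1%), beside 3.58% of all 32851 windows. AAGATGG, the core of the YY1 motif, occurred in 11 windows (15.1%), beside 6.34% of all. CCGGAAG, an ETS motif, was in 17 (23.3%, beside 8.86%) and TATAAA in 9 (12.3%, beside 13.6%). Matches of different motifs overlapped in 0 of the 73 windows. At least 1 of the 4 motifs was found in 36 of the 73 windows, and none of the motifs was found in all windows; no test was run on these shares. A match is only a string of letters in the window.

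The NRF1 matches on the gene's own strand that lie, with 20 bases on either side, wholly before the gene's start are shown as examples, chosen for holding the motif, of where it stands in promoters of complexes I, II, IV and V. Capitals mark the motif, and each stretch reads along the gene's strand, from RefSeq in build GRCm38.p6.
Ndufa6, chr15:82354348-82354394, minus strand: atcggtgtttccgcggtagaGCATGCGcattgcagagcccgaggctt
Ndufa11, chr17:56717684-56717730, plus strand: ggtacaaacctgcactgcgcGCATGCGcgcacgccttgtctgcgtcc
Sdhb, chr4:140961197-140961243, plus strand: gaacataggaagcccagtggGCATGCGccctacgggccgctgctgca
Cox6a1, chr5:115349092-115349138, minus strand: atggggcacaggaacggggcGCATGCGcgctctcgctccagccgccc
Atp5g2, chr15:102671061-102671107, minus strand: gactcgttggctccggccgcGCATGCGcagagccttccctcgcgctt
Atp5j, chr16:84835096-84835142, minus strand: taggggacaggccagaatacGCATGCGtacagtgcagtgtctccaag
Atp5k, chr5:108434421-108434467, minus strand: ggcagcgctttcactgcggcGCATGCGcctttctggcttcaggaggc

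The motif starts between 40 bases (Atp5g2) and 160 bases (Cox6a1) before the gene's start. The other 4 windows with the motif are those of Ndufa8, Uqcrc1, Uqcr11 and Atp5l. The log2 ratios of these 11 genes ran from -0.05 for Uqcrc1 to 0.06 for Atp5g2, so none was near 1.2-fold. Nrf1 itself had a signal of 1244 in HG and 1401 in NG, a log2 ratio of -0.09, and Yy1 had 4356 in HG and 4914 in NG, also -0.09.

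Complex I, the NADH dehydrogenase and entry point for most electrons, had all 36 of its listed members measured. Its subunits from mitochondrial DNA were not among the named genes. The 36 members had a median log2 ratio of 0.0038, with 18 above and 18 below 0, and 34 of them within 0.1 of 0. The 7 core subunits encoded in the nucleus, which carry the flavin and iron-sulphur centres, had a median of 0.01. The 29 listed accessory subunits had one of -0.0034. Ndufv2, an iron-sulphur protein of the NADH-binding module, had the highest ratio of complex I, with a signal of 27505 in HG and 25895 in NG. It was 1.12-fold higher in HG (log2 ratio 0.17), and the 12 measured spots around it on the slide had a median log2 ratio of 0.01.

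The partner of Ndufv2 in the NADH-binding module, Ndufv1, which holds the flavin, had a log2 ratio of -0.04, from 43083 in HG and 46850 in NG. Ndufs1, the largest iron-sulphur subunit, had -0.01, from 24339 in HG and 25959 in NG. A difference like that of Ndufv2 was therefore not seen in these neighbours in the module. Ndufs3, Ndufs7 and Ndufs8 belong to the arm that reduces quinone, and they had log2 ratios of 0.01, 0.03 and -0.06.

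Among the accessory subunits Ndufs5 had the next highest ratio of complex I, 0.07, with 59236 in HG and 59439 in NG. The lowest ratio of the complex was that of Ndufa9, an accessory subunit near the quinone site, at -0.11 from 12197 in HG and 13867 in NG. Ndufb7 and Ndufb3, both of the membrane arm, came next with -0.07 each. Ndufa4 carries a complex I name but is now known as a component of complex IV; its log2 ratio was -0.0034, from 60613 in HG and 64215 in NG. Ndufab1, the mitochondrial acyl carrier protein, is a complex I subunit that the symbol rule does not take. It had 3373 in HG and 3182 in NG, a log2 ratio of 0.16. By median pixels its ratio was 0.06, under a setting in which the median of all measured genes was -0.11.

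Complex II, succinate dehydrogenase, links the TCA cycle to the chain and has 4 subunits with ratios from -0.07 to -0.0011, of which that of Sdhc turned to 0.0063 with the percentile taken over detected probes. Sdha, which oxidises succinate, had a signal of 24204 in HG and 26874 in NG, a log2 ratio of -0.07. Sdhb, the iron-sulphur subunit, had 53083 in HG and 56452 in NG, a ratio of -0.0089. The membrane anchor Sdhc had 20582 in HG and 21772 in NG, a ratio of -0.0011, and the other anchor, Sdhd, 28608 in HG and 31242 in NG, a ratio of -0.05. The second probes of Sdhb and Sdhc gave -0.09 and -0.08. The median of the complex was -0.03.

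Complex III, which passes electrons from quinol to cytochrome c, had a median log2 ratio of -0.03 over 8 subunits, 2 above and 6 below 0. Uqcrh, the hinge protein, had the highest ratio, 0.08, from 103392 in HG and 103420 in NG. Its second probe gave -0.03, on the other side of 0. The core protein Uqcrc1 had the lowest, -0.05, from 6989 in HG and 7661 in NG. Uqcrfs1, the Rieske iron-sulphur protein, had 21406 in HG and 22834 in NG, a ratio of -0.01. Cyc1, the cytochrome c1 of this complex, falls outside the symbol rule and had -0.05, from 25808 in HG and 28244 in NG.

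Complex IV, cytochrome c oxidase, includes isoforms of restricted expression and was the only complex with a member past 1.2-fold. Of its 17 genes 14 were measured, with a median log2 ratio of 0.02, 10 above and 4 below 0. Cox6a2, the isoform of heart and skeletal muscle, had a signal of 341 in HG and 506 in NG, with a log2 level relative to the array's 75th percentile of -1.11 in HG and -0.61 in NG. It was 1.41-fold lower in HG (log2 ratio -0.49). The median pixels of the spots gave -0.57, under a setting in which the median of all measured genes was -0.11.

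Cox6a2 rests on 1 spot per array and has no second probe. Repeat spots with signals from 100 to 500 had a median SD of 0.11 in log2 ratio, so its difference was larger than the usual spot error at this brightness. The 14 measured spots around it had a median log2 ratio of 0.04. No spot of any subunit's brightest probe was marked as an outlier on either array. Of 1643 genes whose lower signal lay between 200 and 500, 6.51% were at least 1.2-fold lower in HG and 8.03% at least 1.2-fold higher. A difference of at least 1.5-fold, beyond that of Cox6a2, was seen in 0.730% on the lower and 1.03% on the higher side.

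Markers of striated muscle were near background beside it. Of 6, only Tnnt2 (cardiac troponin T) was measured on both arrays, at 66.0 in HG and 71.1 in NG. Myh1 and Myh6, striated muscle myosins, were well above background in HG only, at 27.3 and 33.2 in HG and 12.5 and 17.2 in NG. Ckm, Actn2 and Myog did not rise well above background in HG or NG, and the summed signal of the 6 was 154 in HG and 125 in NG. Their part in the difference of Cox6a2 was not tested.

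The ubiquitous partner Cox6a1 had 349248 in HG and 363718 in NG, a log2 ratio of 0.02. The other pairs of isoforms also lay near 0. Cox7a2, the form found in most tissues, had the highest ratio of the complex, 0.10, from 41030 in HG and 40553 in NG, and the muscle form Cox7a1 had 0.02, from 776 in HG and 807 in NG. Cox6b1 had -0.0096, from 10895 in HG and 11593 in NG, and its testis counterpart Cox6b2 had 0.06, from 1742 in HG and 1772 in NG. The restricted forms Cox7a1 and Cox6b2 were thus measured without a difference of the size seen for Cox6a2.

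The other restricted forms did not rise well above background in HG or NG, so no ratio is given. Cox7b2, of testis, had a signal of 5.40 in HG and 14.7 in NG, beside 55515 in HG and 59449 in NG for the common form Cox7b. Cox8b, the muscle form, had 5.07 in HG and 8.63 in NG, and Cox8c, of testis, 5.67 in HG and 6.39 in NG. Cox8a, the common form, had 172366 in HG and 180422 in NG, a log2 ratio of 0.01.

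**Figure D3:**
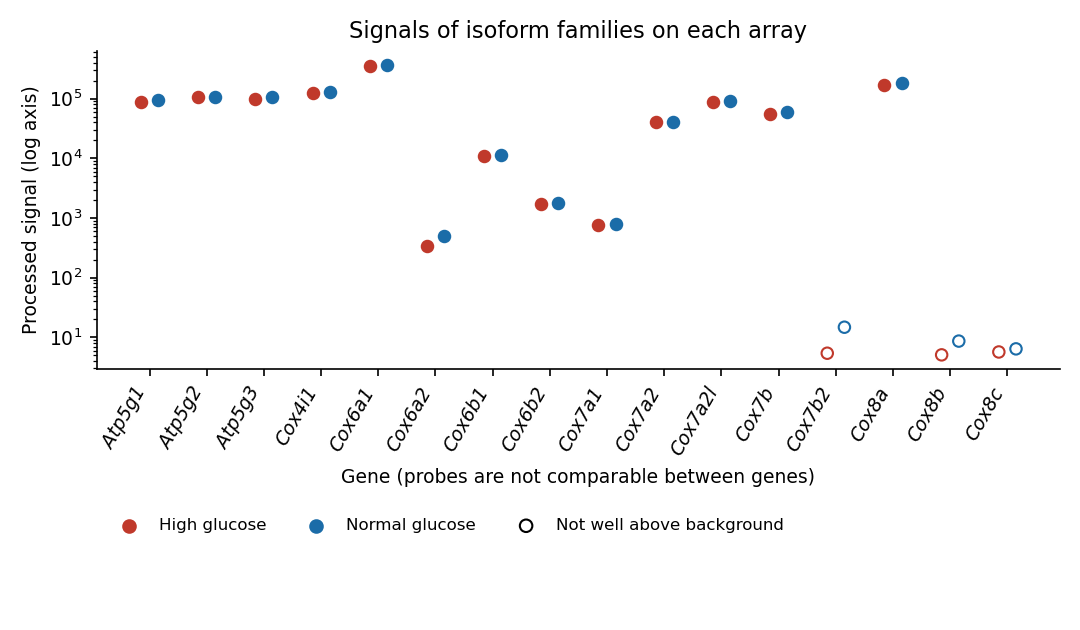
Unscaled processed signal (vertical log axis) on the HG array (left point of each pair) and the NG array (right point) for subunit families with isoforms, with open points for signals not well above background. The points of a pair nearly coincide except for Cox6a2 (341 in HG, 506 in NG) and for the unmeasured Cox7b2 and Cox8b.

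The remaining subunits of the oxidase also lay near 0. Cox4i1, the regulatory subunit that binds ATP, had 123771 in HG and 130534 in NG, a log2 ratio of 0.0032. Cox5a and Cox5b had 0.04 and 0.02, Cox6c 0.07, Cox7b -0.02 and Cox7c 0.0074. Cox7a2l, known as a factor that joins complexes III and IV into supercomplexes, had -0.01, from 86829 in HG and 92713 in NG, and its further probes gave -0.06 and -0.11. Cox4i2, the low-oxygen isoform left out of the list, had 284 in HG and 332 in NG, a log2 ratio of -0.14, and Ndufa4l2 had 1205 in HG and 1398 in NG, also -0.14.

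Complex V had a median log2 ratio of -0.0062 over 17 subunits, 6 above and 11 below 0. Atp5e, the epsilon subunit in the central stalk of the F1 part, was the highest of all 79 measured subunits, with a signal of 69961 in HG and 63076 in NG. It was 1.17-fold higher in HG (log2 ratio 0.23), so it stayed under 1.2-fold. The 12 measured spots around it had a median log2 ratio of 0.0075. Atp5e has 1 probe, and by median pixels its ratio was 0.12, under a setting in which the median of all measured genes was -0.11.

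The remaining F1 subunits lay on both sides of 0. The catalytic beta subunit Atp5b had 184917 in HG and 188094 in NG, a log2 ratio of 0.06, and the alpha subunit Atp5a1 had 63862 in HG and 67789 in NG, a ratio of -0.0062. The gamma subunit Atp5c1 had -0.05 and the delta subunit Atp5d -0.09, the lowest of the complex, from 22861 in HG and 25640 in NG. Atp5e and Atp5d, which sit together in the central stalk, thus had ratios at opposite ends of their complex. The 12 subunits of the peripheral stalk and the membrane part had a median of -0.0082 and all lay within 0.1 of 0, from Atp5pb at -0.06 to Atp5md at 0.07.

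The membrane ring of ATP synthase is built from subunit c, whose mature protein is encoded alike by Atp5g1, Atp5g2 and Atp5g3, differing in the import sequence that is cut off. Atp5g1 had 88116 in HG and 94509 in NG, a log2 ratio of -0.02. Atp5g2 had 105842 in HG and 107460 in NG, a ratio of 0.06, and its second probe gave 0.04. Atp5g3 had 99112 in HG and 105140 in NG, a ratio of -0.0053. The 3 genes thus all lay within 0.1 of 0.

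Further probes allowed a check of the ratios within 22 genes. Across 29 further measured probes, the log2 ratio differed from that of the gene's brightest probe by a median of 0.04 in size, and 27 differed by less than 0.1. Over all named genes the median difference was 0.09 across 4339 further probes. With a signal of at least 5000 it was 0.034 for 25 further probes of subunits, beside 0.042 for 621 of all named genes. The largest difference among the subunits was that of a dim probe of Cox7c, with 153 in HG and 198 in NG, which gave -0.29 where the brightest probe of Cox7c gave 0.0074. Atp5l, a membrane subunit of the synthase, had 5 probes, and its ratios ran from -0.01 to 0.05. Small differences between subunits of a complex were thus of the size of those between probes of the same gene.

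**Figure D4:**
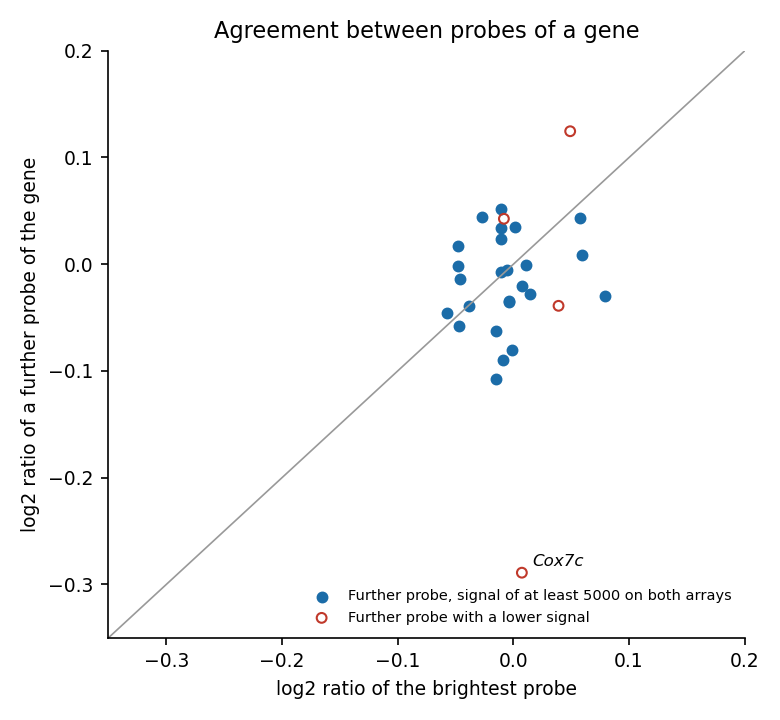
Log2 ratio of each of the 29 further measured probes (vertical axis) against that of the brightest probe of the same gene (horizontal axis); filled points have a signal of at least 5000 on both arrays, and the line marks equality. Points form a cloud around 0 rather than a line, and the dim probe of Cox7c lies lowest, at -0.29.

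The complexes themselves were close to each other. The median log2 ratios were 0.0038 for complex I, -0.03 for complexes II and III, 0.02 for complex IV and -0.0062 for complex V, and centring each array on its median put all 5 below 0. Within a complex the SD of the ratio was 0.05 for complex I, 0.03 for complex II, 0.05 for complex III, 0.14 for complex IV and 0.07 for complex V. The value for complex IV rests on Cox6a2 and was 0.03 without it, with a median of 0.02.

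Genes that serve the chain without being subunits were also close to 0, and none of those measured in the following lists was 1.2-fold different. Of 14 genes of mobile carriers and quinone synthesis 13 were measured, with a median log2 ratio of -0.03, 6 above and 7 below 0. Cycs, cytochrome c, had 42644 in HG and 42718 in NG, a ratio of 0.08. The lowest, -0.15, was that of Pdss2, which helps to build the tail of coenzyme Q, with 511 in HG and 598 in NG. Coq3, a methyltransferase of coenzyme Q synthesis, was well above background in NG only, at 29.1 in HG and 38.8 in NG.

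Assembly factors were likewise near 0. The 15 for complex I had a median of 0.02, with 10 above 0, from Timmdc1 at -0.15 to Tmem186 at 0.21; Tmem186 had 574 in HG and 525 in NG. The 4 for complex II had a median of -0.02, and 5 measured of 6 for complex III one of -0.04. For complex IV 19 of 21 were measured, with a median of -0.0090. Its lowest were Cox17, a copper chaperone, at -0.26 from a dim 61.7 in HG and 78.0 in NG, and Sco1, another copper protein, at -0.24 from 304 in HG and 379 in NG. For complex V 3 of 4 were measured, with a median of -0.02, and Atpaf1 was well above background in HG only, at 28.8 in HG and 19.6 in NG.

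**Figure D5:**
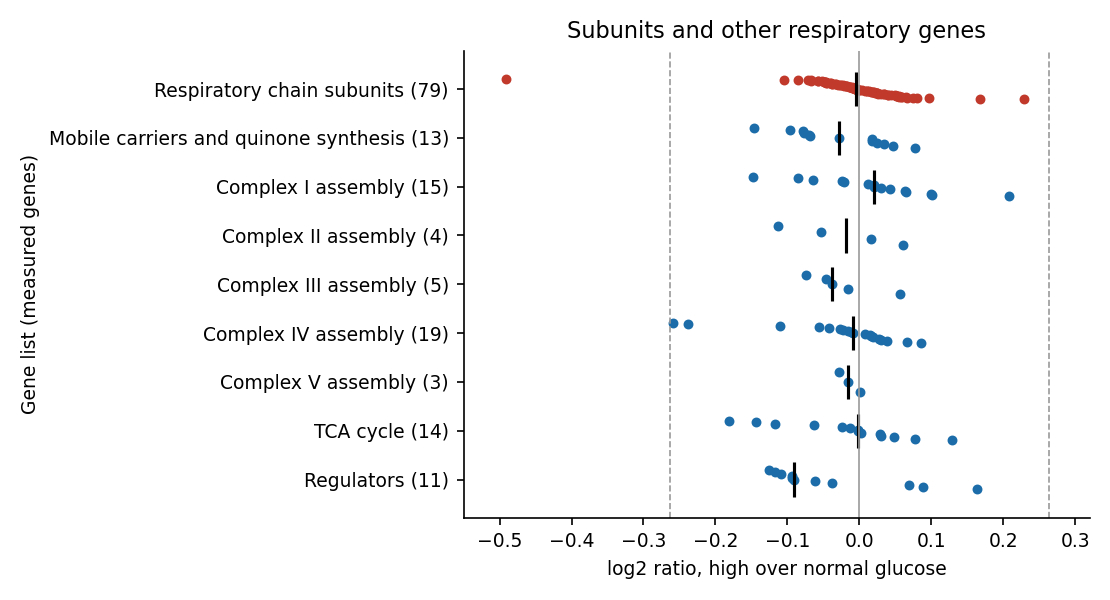
Log2 ratio of high over normal glucose (horizontal axis) for the measured genes of each list, 1 point a gene, with the number measured in parentheses, medians as black bars and dashed lines at 1.2-fold. Apart from Cox6a2 at -0.49 all points lie between the dashed lines.

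The 14 genes of the TCA cycle, which feeds NADH and succinate to the chain, were all measured, with a median of -0.0023. Ogdh and Dlst, components of the same oxoglutarate dehydrogenase complex, stood at opposite ends. Ogdh had 21776 in HG and 21047 in NG, a log2 ratio of 0.13, and Dlst 8261 in HG and 9901 in NG, a ratio of -0.18.

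Regulators of mitochondrial gene expression had a median log2 ratio of -0.09 over 11 of 12 measured genes, 3 above and 8 below 0. Tfam, which packages and transcribes mitochondrial DNA, had 3259 in HG and 3536 in NG, a ratio of -0.04. The coactivator Ppargc1a (PGC-1alpha) was dim, at 56.9 in HG and 65.6 in NG, a ratio of -0.13, and its relative Pprc1 had 0.16 from 499 in HG and 471 in NG. Ppargc1b was well above background in HG only, at 28.4 in HG and 24.2 in NG. Each of the 11 was within 1.2-fold.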

How the data were processed

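The deposited intensity values were extracted with Feature Extraction 11.5.1.1, per the file headers, although version 9.3.2.1 stands in the submitters' processing notes. The processed signal is linear, background-subtracted and not scaled between arrays. The series' deposited value table repeats this intensity: 55249 of 55249 probes with 1 spot matched within a relative tolerance of 0.0001, and its column medians were 48.9 for HG and 49.6 for NG. Spot flags are other deposited values, 0 or 1, from the same software.

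Control spots were left out, log2 signals averaged over spots of a probe, and the 75th percentile of the 55681 probes subtracted on each array. Probes were named by RefSeq accession through a GRCm38.p6 gene table, which matched 27509 and left 28172 unnamed. The array design names another build, mm9. A gene was represented by its brightest probe, and counted as measured when at least 0.5 of its spots were well above background on both arrays and none was saturated. The members, lists, naming rule and alternatives were chosen with earlier results of these data known; the grouping of core, accessory and F1 subunits and the comparisons by signal band were chosen after the values were seen. Named were, per complex, the highest and lowest ratios, all members past 1.2-fold or unmeasured, isoform families, complex II, and the largest ratios of each list; the other names were picked with their values in view. Motifs, shortened to at most 7 letters, were chosen after the data were seen. The counting steps were checked on simulated data. Tools were Python 3.11.15, pandas 2.3.3, R 4.3.3 and limma 3.58.1 (normexp only). The files hold no mean spot signal, so normexp (offset 50) used median signals. Both arrays share a slide, so no block for it could be fitted. The alternatives were other backgrounds, scalings, filters, probes and members. The values of 1 member, which enters the counts and medians, are not reported here.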

Additional observations from a re-analysis of the deposited data

How the results depend on the processing

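Across 12 alternatives, 90 of 108 recomputed values stayed within 0.045, the median SD of log2 ratio over repeat probes of all brightness (medians), or within 1.5 times (counts), and 18 moved further. Some alternatives could hardly move a value, so this share overstates how stable the values are. The deposited value table repeats the same intensity, and 0 of 91 spots of the subunits' brightest probes were flagged as outliers. Moving Ndufa4 to complex IV touches only complexes I and IV. No median reached 1.2-fold in these settings, and the medians over all subunits and over complexes I, IV and V, all near 0, changed sign in some of them. With each array centred on its median, the medians were -0.066 for all subunits and -0.057, -0.089, -0.090, -0.043 and -0.067 for complexes I to V, while the median of all genes was -0.068. With median pixels minus local background they were -0.111 for all subunits and -0.109, -0.157, -0.125, -0.086 and -0.117 for complexes I to V, while that of all genes was -0.114. Relative to all genes, the subunits' median lay between -0.0057 and 0.03 under every setting. Both settings shift all genes, so the number of subunits above 0 fell to 7 and 2. With the second brightest probe 22 subunits could be compared, complex II had -0.085 and complex IV -0.028, and 0 were 1.2-fold lower. That count was also 0 with a stricter minimum signal, which leaves out Cox6a2, and 3 without a filter on dim probes, which adds Cox7b2 and Cox8b. The log2 ratio of Cox6a2 ran from -0.57 to -0.41 over the settings that kept it, that of Atp5e from 0.12 to 0.24 and that of Ndufv2 from 0.11 to 0.19. No paired analysis was possible because each condition has 1 array, and for the same reason no replicate could be left out. Dim signals near background limit Cox6a2, Cox7b2, Cox8b and Cox8c.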
